A study of Mus musculus with 20 samples.

Results

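Collagens, laminins and the other structural genes of the basement membrane and interstitial matrix were followed in mouse testis, in RNA bound to the ribosomes of Leydig cells and in RNA of the whole organ. The group was set by family and not by level: every collagen alpha chain and laminin chain with a probe set of a single gene symbol, the nidogens, perlecan (Hspg2) and agrin (Agrn), the fibulins, fibrillin and elastin, and Fn1, Sparc, Dcn, Bgn and Lum. This gave 69 genes of the 19938 with such a probe set, and 68 of them were among the 15651 genes tested. Lum (lumican) was listed in 15 of 20 arrays and was not tested. Its log2 intensity was 5.93 to 6.22 in the first replicates of the ribosome-bound RNA and 6.46 to 7.24 in whole testis.

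All samples came from male 129/C57BL6 mice that were positive for both RiboTag and Cyp17icre, so that animals of both kinds of sample carried the same alleles. RiboTag is a ribosomal protein allele that gains an HA epitope after Cre recombination, and Cyp17 is a steroidogenic enzyme whose promoter drives the Cre in Leydig cells. Every animal received WIN 18,446, an inhibitor of retinoic acid synthesis, at 100 µg/g daily for 7 days from day 2 after birth, then 200 µg of all-trans retinoic acid at day 9, and was killed 42 to 50 days after that injection. This treatment brings the seminiferous tubules into step, and testes were grouped by stage of that cycle into 5 windows: XII-II/III, followed by II/III-VI and VI-VIII, then by VIII-X and finally X-XII. In each window 1 testis was homogenized, 50 µl was kept for total testis RNA, and what remained was precipitated with an antibody against HA to give the ribosome-bound sample, called IP. With 2 replicates of each there were 10 IP and 10 total testis arrays. The labels did not say that the replicates of a window were different animals, so p-values measure only the spread between these samples.

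A basement membrane is a thin sheet built from a laminin network and a collagen IV network. Nidogens, perlecan and agrin link the networks. A laminin is a trimer of an alpha, a beta and a gamma chain, and a collagen IV molecule is a trimer of alpha chains. Fibrillar collagens, collagen VI, elastic fibres and small proteoglycans form the interstitial matrix outside it. In the testis, Sertoli cells and peritubular myoid cells build the wall of the seminiferous tubule, while Leydig cells lie between the tubules beside vessels and macrophages.

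Promoter windows are given for 3 pairs of genes that the results turn on: Lamb1 and Lamb2, laminin beta chains that were both several-fold higher in IP; Col4a1 and Col4a2, a head-to-head pair with near-equal differences; and Col6a1 and Col6a2, chains of one collagen that went apart. Each window runs from 250 bases before to 50 bases after a RefSeq start on GRCm38.p6, written along the gene's strand. Capitals mark matches on either strand to GGGCGG, known as the GC box, or to the CCAAT box. They are at chr12:31265043-31265342 (Lamb1, plus strand), chr9:108479612-108479911 (Lamb2, plus), chr8:11312777-11313076 (Col4a1, minus), chr8:11312555-11312854 (Col4a2, plus), chr10:76725995-76726294 (Col6a1, minus) and chr10:76623355-76623654 (Col6a2, minus, the first of 2 listed starts).
Lamb1: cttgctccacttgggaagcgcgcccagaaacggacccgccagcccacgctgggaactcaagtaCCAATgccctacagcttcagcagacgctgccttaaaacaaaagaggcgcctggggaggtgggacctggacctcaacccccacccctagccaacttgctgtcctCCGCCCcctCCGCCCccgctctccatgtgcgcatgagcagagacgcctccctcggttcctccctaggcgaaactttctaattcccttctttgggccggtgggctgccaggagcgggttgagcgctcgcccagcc
Lamb2: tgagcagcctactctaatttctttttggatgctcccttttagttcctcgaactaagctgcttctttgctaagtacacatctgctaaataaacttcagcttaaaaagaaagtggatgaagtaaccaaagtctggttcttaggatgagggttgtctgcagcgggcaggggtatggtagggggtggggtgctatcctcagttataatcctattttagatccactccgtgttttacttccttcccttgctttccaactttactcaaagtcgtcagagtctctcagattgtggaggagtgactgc
Col4a1: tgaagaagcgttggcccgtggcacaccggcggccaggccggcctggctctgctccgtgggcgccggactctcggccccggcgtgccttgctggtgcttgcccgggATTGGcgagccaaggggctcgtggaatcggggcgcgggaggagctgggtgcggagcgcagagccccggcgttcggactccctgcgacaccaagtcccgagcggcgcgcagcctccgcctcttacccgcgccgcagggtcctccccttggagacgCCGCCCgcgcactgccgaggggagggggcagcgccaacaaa
Col4a2: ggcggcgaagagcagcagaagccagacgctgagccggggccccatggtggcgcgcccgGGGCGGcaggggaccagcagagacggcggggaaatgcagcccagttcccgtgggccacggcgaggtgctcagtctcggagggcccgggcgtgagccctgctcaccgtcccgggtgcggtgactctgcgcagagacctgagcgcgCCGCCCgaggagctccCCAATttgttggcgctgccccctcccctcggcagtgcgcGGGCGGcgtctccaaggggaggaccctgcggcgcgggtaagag
Col6a1: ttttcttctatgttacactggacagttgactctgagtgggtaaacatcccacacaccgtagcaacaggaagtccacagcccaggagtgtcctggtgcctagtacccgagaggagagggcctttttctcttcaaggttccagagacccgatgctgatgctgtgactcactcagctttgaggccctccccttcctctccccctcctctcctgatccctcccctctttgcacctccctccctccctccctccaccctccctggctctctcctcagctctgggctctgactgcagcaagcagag
Col6a2: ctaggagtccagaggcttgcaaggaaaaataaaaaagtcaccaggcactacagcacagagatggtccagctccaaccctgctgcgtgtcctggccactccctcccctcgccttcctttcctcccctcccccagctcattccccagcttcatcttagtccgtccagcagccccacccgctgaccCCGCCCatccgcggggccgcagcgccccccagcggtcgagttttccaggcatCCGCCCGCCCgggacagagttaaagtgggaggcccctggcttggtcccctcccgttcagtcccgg

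The windows of Col4a1 and Col4a2 lie on opposite strands and share 78 bases (chr8:11312777-11312854), with their starts 21 bases apart. The Lamb1 window held 2 GC boxes and 1 CCAAT box, while Lamb2 held neither, and both genes were higher in IP by similar folds (4.29 and 3.92). The Col4a1 window held 1 GC box and 1 CCAAT box, Col4a2 held 3 and 1, Col6a2 held 3 GC boxes, 2 of them overlapping, and Col6a1 held none. The GC box of Col4a1 and 1 of the 3 of Col4a2 are the same bases within the shared 78, read on opposite strands. Windows were found for 49 of the 69 genes, 56 in all. GGGCGG was in 34 of these 56 (60.7%), against 35.7% of all 32851 promoter windows of the same length, and CCAAT was in 17 (30.4%) against 37.4%. TATAAA was in 5 (8.93%) against 13.6%, and CAAGGTCA, a site known for the steroidogenic factor NR5A1, in 2 (3.57%) against 1.56%. A match says only that these letters are in the window.

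The 20 arrays fell into 4 sets of 5, one for each fraction and replicate number, that appear to have been normalized separately. Over all genes tested, the median difference of IP minus total testis was 0.029 on the log2 scale in replicate 1 and 0.378 in replicate 2, and 0.20 in the mean of both. Markers of Leydig cells were higher in IP for 10 of 10 genes tested, with a summed intensity of 103440 to 124850 in IP arrays and 17589 to 24118 in total testis. Sertoli cell markers were higher for 8 of 13 and lower for 0 (35931 to 60605 against 27277 to 32171). Peritubular myoid markers were higher for 3 of 10 and lower for 5 (8956 to 13332 against 16342 to 19863), and stromal fibroblast markers higher for 2 of 5 and lower for 0 (6066 to 9343 against 2838 to 3535). Of endothelial markers, 3 of 8 were higher and 2 lower (3888 to 5873 against 3093 to 3593), and of macrophage markers 2 of 10 and 7 (4266 to 6076 against 5979 to 6851). Spermatocyte markers were lower for 10 of 10 (31637 to 47417 against 55089 to 61790) and spermatid markers for 8 of 10 (47696 to 81836 against 92332 to 107500). A summed intensity is carried by the brightest genes of its list. The median log2 difference was 3.29 for Leydig, 0.40 for Sertoli, 0.088 for fibroblast and -0.039 for endothelial markers, beside 0.20 for all genes. It was -0.37 for myoid, -0.51 for macrophage, -0.78 for spermatocyte and -0.94 for spermatid markers. Among all genes tested, 50.1% were higher in IP and 26.6% lower. After each array was centred on its median these shares were 27.6% and 62%. Sertoli markers then had 5 higher and 6 lower, fibroblast markers 2 and 3, endothelial 2 and 6, and myoid 1 and 8. Macrophage markers had 1 and 8, Leydig markers 10 and 0, and both germ cell lists 0 and 10. Array intensities do not fall to 0, so these sums cannot show whether RNA of a cell type was absent from IP. The part of Sertoli, fibroblast and endothelial RNA in the differences below was not tested.

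The first comparison asked which matrix genes were enriched in RNA bound to Leydig cell ribosomes. Lamc1, Lama4, Lamb1, Lamb2 and Lamc3, all laminin chains, and Fbln5, a fibulin, led, each at least 3.63 times as high in IP. Col6a1, Hspg2, Col11a1, Lama1, Nid2 and Sparc came next, each at 1.00 or more on the log2 scale. In limma (Benjamini-Hochberg adjusted p over all genes, threshold 0.05), 39 of 68 genes were higher in IP (57.4%) and 5 lower (7.35%), beside 50.1% and 26.6% of all genes tested. Among the 39, Lama4, Col5a2 and Col10a1 passed the filter on low values (a group mean above 8.20) through IP alone. The share that was higher is near that of all genes and is not a result about the matrix genes, and their median difference, 0.23, was near the 0.20 of all genes. After each array was centred on its median the split was 22 higher and 41 lower, beside 27.6% and 62% of all genes, and after quantile normalization 26 and 34, beside 35.8% and 48.8%. The median difference was then -0.29 for the matrix genes and -0.32 for all genes after centring, and -0.095 and -0.11 after quantile normalization. A gene called lower after centring is thus below 0 but can lie above the median of all genes. Higher under all 3 scalings were 22 genes (32.4%, beside 27.6%), and 12 genes called higher were called lower after centring (17.6%, beside 12.4%). For 23 genes (33.8%) every IP array was above every total testis array, beside 32.8% of all genes, and for 0 every IP array was below, beside 10.1%. A difference of at least 1 log2 unit was called for 12 genes (17.6%), beside 18.1%. In bulk samples, more cells of a type and more RNA per cell cannot be told apart.

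**Figure D1:**
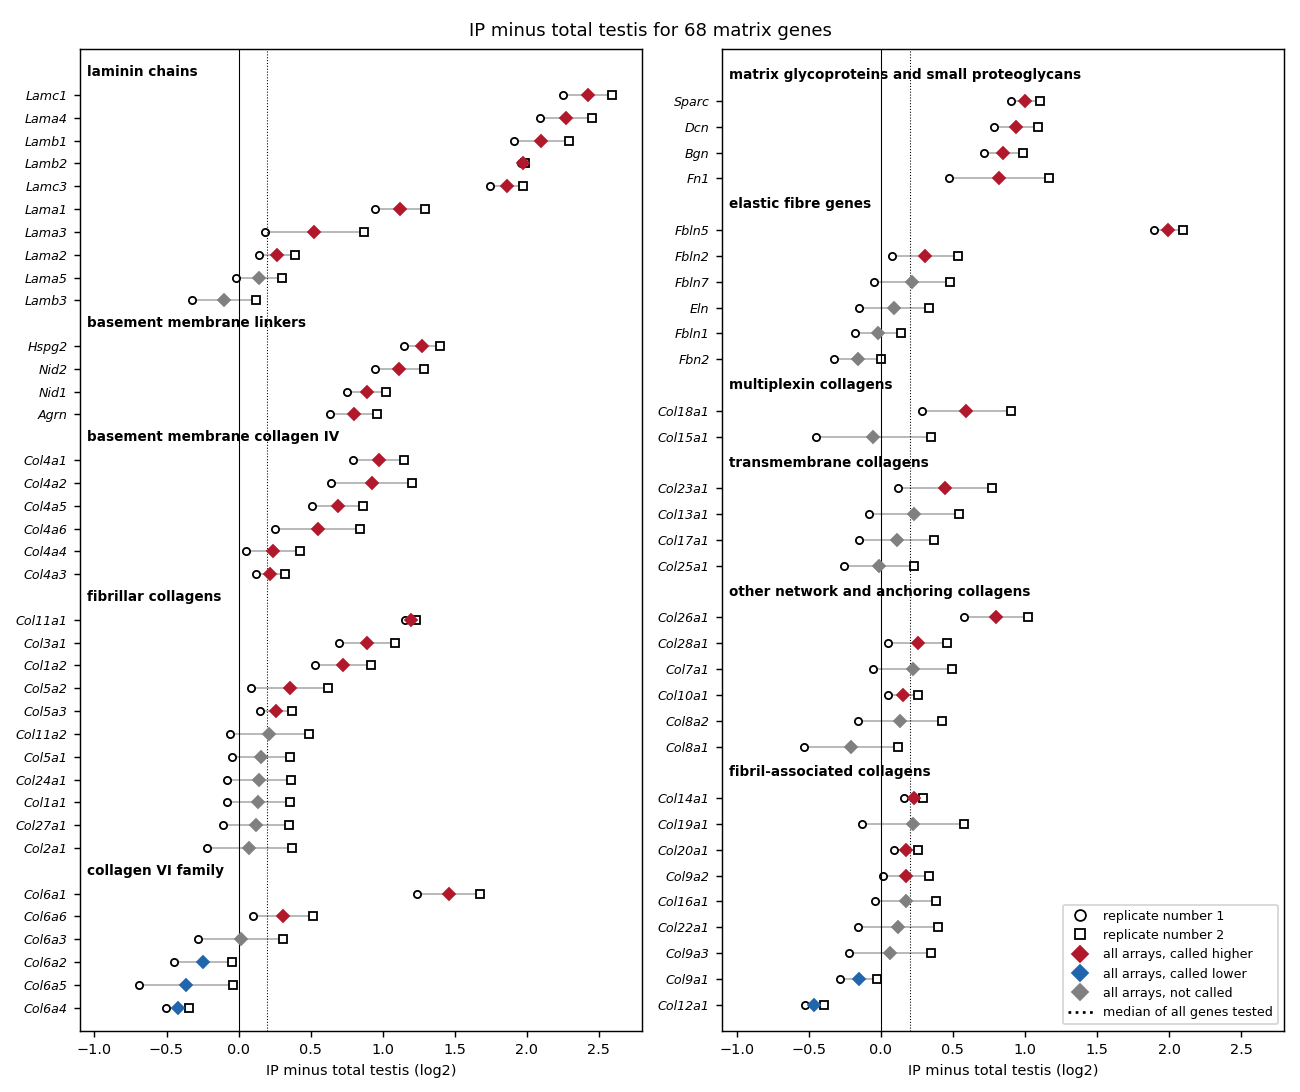
Difference of IP minus total testis (log2) for each of the 68 genes tested, grouped by role. Diamonds give the mean of 5 windows, open circles the value in replicate 1 and open squares that in replicate 2. The grey line joins the replicates and is not an SE. Laminin chains reach 2.42 while most fibrillar and fibril-associated collagens lie near the 0.20 median of all genes, and the value in replicate 2 lies above that in replicate 1 for all 68 genes.

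The family counts below stand beside 50.1% higher and 26.6% lower among all genes tested, and 27.6% and 62% after centring. Single differences after centring stand beside a median of -0.32 for all genes tested. Laminin chains fell into those with large differences and those near the median of all genes. Of 10 chains, 8 were higher in IP, 0 were lower, and 6 remained higher after centring. Their median difference was 1.49. The 6 were Lamc1, Lama4, Lamb1, Lamb2, Lamc3 and Lama1, which include 2 alpha, 2 beta and 2 gamma chains.

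Lamc1, the gamma chain of most laminins, lay at 10.99, 11.55 and 11.77 (lowest, median and highest log2 intensity of 10 arrays) in IP and at 8.80, 9.10 and 9.12 in total testis. Every IP array was above every total testis array by well over 1 log2 unit, and the lowest of the 10 was the first replicate of II/III-VI. The difference was 2.42 ± 0.093 (SE, 10 arrays a fraction), or 5.36-fold (limma adjusted p = 3.10e-13), with 2.25 in replicate 1 and 2.59 in replicate 2. Lama4, an alpha chain known from vessel walls and other mesenchymal basement membranes, lay at 9.89, 10.19 and 10.63 in IP and 7.80, 7.96 and 8.18 in total testis. The fractions did not overlap. The measured difference was 2.27 ± 0.0945, or 4.83-fold (adjusted p = 8.74e-13; 1.22e-12 with no filter on low values). Every total testis window of Lama4 was below the low-value filter (8.20), so it was tested through its IP level alone, and its fold is set against a dim signal.

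Lamb1, a beta chain made early and widely, lay at 10.57, 11.14 and 11.36 in IP and 8.89, 8.95 and 9.08 in total testis. Lamb2, the beta chain of mature kidney, muscle and nerve basement membranes, lay at 11.72, 12.09 and 12.24 in IP and 9.94, 10.04 and 10.15 in total testis. Both were higher in all 10 IP arrays than in any total testis array. Lamb1 differed by 2.10 ± 0.0963 (4.29-fold, adjusted p = 3.15e-12) and Lamb2 by 1.97 ± 0.0671 (3.92-fold, adjusted p = 6.99e-14). Lamb2 was the more even of the pair between replicate numbers, at 1.96 and 1.99, against 1.91 and 2.29 for Lamb1. These are the genes whose promoter windows are printed first above, a GC-rich one for Lamb1 (63.7% G and C) and a less GC-rich one for Lamb2 (44%).

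Lamc3, a further gamma chain, lay at 11.17, 11.67 and 11.90 in IP and 9.66, 9.77 and 9.86 in total testis, and Lama1, an alpha chain of epithelial basement membranes, at 9.997, 10.02 and 10.45 against 8.70, 9.05 and 9.20. Neither overlapped between fractions. The differences were 1.86 ± 0.0832 (3.63-fold, adjusted p = 2.26e-12) and 1.12 ± 0.0839 (2.18-fold, adjusted p = 1.95e-09). In the first IP set, the 5 arrays of Lama1 held only 2 distinct values, so the spread behind its SE may be too small.

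The remaining chains were smaller and depended on the scaling, with a median of -0.32 for all genes tested after centring. Lama3, an epithelial alpha chain, differed by 0.53 ± 0.113 (adjusted p = 4.64e-04) but by 0.0012 after centring. Lama2, the alpha chain of muscle laminin, was called higher at 0.27 ± 0.0795 (adjusted p = 5.77e-03) but lower at -0.26 after centring, and was not called when the normalization set was a random block (adjusted p = 0.264). Lama5, a widespread alpha chain, gave 0.14 ± 0.0729 (adjusted p = 0.0839) and -0.38 after centring. Lamb3, the beta chain of skin laminin, gave -0.10 ± 0.0824 (adjusted p = 0.282) and -0.62 after centring.

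**Figure D2:**
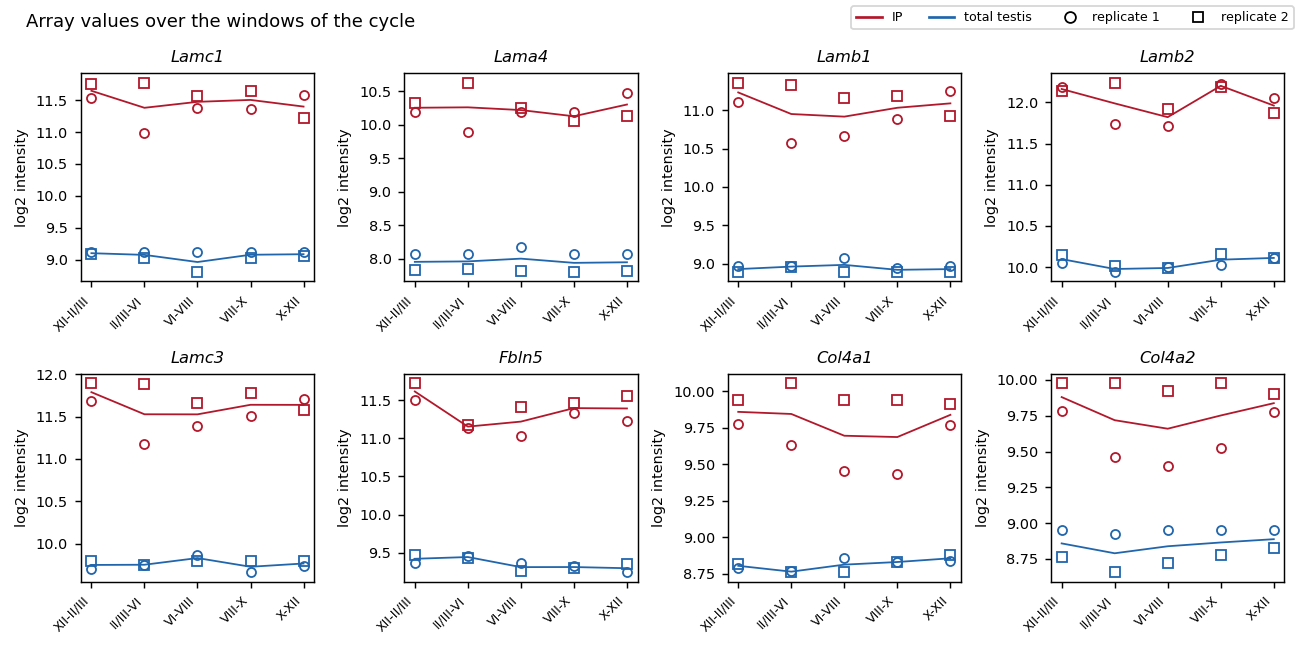
Log2 intensity in each array over the 5 windows for 5 laminin chains, Fbln5, Col4a1 and Col4a2, with IP in red, total testis in blue, circles for replicate 1, squares for replicate 2 and lines through the mean of 2 arrays. The red points lie above all blue points in every panel, and for Lamc1 the lowest red point (10.99) is the first replicate of II/III-VI.

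All 4 basement membrane linkers were higher in IP, and all 4 remained so after centring. Their median difference was 1.00. Hspg2 encodes perlecan, a heparan sulfate proteoglycan that binds laminin and collagen IV. It lay at 10.57, 10.97 and 11.22 in IP and 9.61, 9.66 and 9.81 in total testis, without overlap, and differed by 1.27 ± 0.0899 (2.41-fold, adjusted p = 9.32e-10). Nid2, a nidogen, lay at 10.54, 10.99 and 11.26 against 9.47, 9.90 and 10.31, again without overlap, and differed by 1.12 ± 0.0706 (adjusted p = 2.20e-10). Agrn, also a heparan sulfate proteoglycan, lay at 9.05, 9.36 and 9.66 against 8.47, 8.60 and 8.61 and differed by 0.80 ± 0.088 (adjusted p = 2.92e-07).

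Nid1, the other nidogen, had the widest range of the 4. Its IP arrays lay at 9.76, 11.14 and 12.55 and its total testis arrays at 9.42, 10.28 and 10.94, and the fractions overlapped. It differed by 0.89 ± 0.163 (adjusted p = 9.87e-05), and was not called when the normalization set was a random block (adjusted p = 0.132).

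Collagen IV chains come from 3 gene pairs, and all 6 were higher in IP, with a median of 0.62; 3 were still higher and 2 were lower after centring. Col4a1 and Col4a2 make the collagen IV of nearly all basement membranes. Col4a1 lay at 9.43, 9.84 and 10.06 in IP and 8.76, 8.82 and 8.88 in total testis, and Col4a2 at 9.40, 9.84 and 9.98 against 8.66, 8.87 and 8.95. For both genes every IP array was above every total testis array. They differed by 0.97 ± 0.0825 (1.96-fold, adjusted p = 1.05e-08) and 0.92 ± 0.0925 (1.90-fold, adjusted p = 8.93e-08), a pair of values within 1 SE of each other.

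The chains of other collagen IV networks had smaller differences. Col4a5 gave 0.69 ± 0.0699 (adjusted p = 1.08e-07) and its neighbour Col4a6 0.55 ± 0.103 (adjusted p = 1.18e-04), and Col4a6 was at 0.026 and not called after centring. Col4a3 and Col4a4, known from the kidney glomerulus, gave 0.22 ± 0.0591 and 0.24 ± 0.0824 (adjusted p = 3.06e-03 and 0.0153). Both were lower after centring, at -0.31 and -0.29, and neither was called with the set as a random block (adjusted p = 0.0726 and 0.131).

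Among 11 fibrillar collagen chains, 5 were higher in IP, 0 were lower and 6 were not called, with a median of 0.21. After centring 3 were higher and 8 lower. The shares higher and lower among all genes were 50.1% and 26.6%, and 27.6% and 62% after centring. Col11a1, a chain that limits the width of cartilage fibrils, led at 9.42, 9.65 and 10.08 in IP and 8.41, 8.44 and 8.57 in total testis. It did not overlap between fractions and differed by 1.19 ± 0.0659 (2.29-fold, adjusted p = 3.51e-11). Col3a1, of reticular fibres, lay at 9.43, 9.75 and 10.04 against 8.84, 8.88 and 8.95, and differed by 0.89 ± 0.0831 (adjusted p = 3.60e-08).

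Collagen I is a trimer of Col1a1 and Col1a2 products. Col1a2 lay at 9.91, 10.31 and 10.56 in IP and 9.50, 9.54 and 9.66 in total testis, without overlap, and differed by 0.73 ± 0.0892 (adjusted p = 1.12e-06). Col1a1 lay at 9.59, 9.75 and 10.09 against 9.61, 9.67 and 9.75 with overlapping arrays, and gave 0.13 ± 0.0854 (adjusted p = 0.160) and -0.39 after centring. Col5a2 and Col5a3 were the other fibrillar chains called higher (0.36 and 0.26), and both were lower after centring (-0.17 and -0.26). Col5a3 was not called with the set as a random block (adjusted p = 0.0799). Every total testis window of Col5a2 was below the low-value filter (8.20), so it was tested through its IP level alone. Its call was kept with no such filter. Col5a1 was not called (0.15, adjusted p = 0.0830; -0.37 after centring), nor were Col2a1, Col11a2, Col24a1 and Col27a1, at 0.075 to 0.21.

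Collagen VI is a beaded microfibril assembled from Col6a1, Col6a2 and Col6a3 products, with Col6a4, Col6a5 and Col6a6 as later relatives of Col6a3. Of the 6 genes, 2 were higher in IP, 3 lower and 1 was not called, beside 50.1% higher and 26.6% lower among all genes. Col6a1 lay at 10.13, 10.74 and 11.13 in IP and 9.09, 9.20 and 9.29 in total testis. All IP arrays were above all total testis arrays, and the difference was 1.46 ± 0.114 (2.74-fold, adjusted p = 3.41e-09). Col6a2 lay at 8.96, 9.19 and 9.42 against 9.27, 9.44 and 9.51, overlapping and lower in IP by -0.25 ± 0.0758 (adjusted p = 7.22e-03; 0.0672 with the set as a random block). Col6a3 lay at 8.63, 8.89 and 9.12 against 8.69, 8.89 and 9.00 and gave 0.01 ± 0.0924 (adjusted p = 0.898), with -0.51 after centring.

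Col6a4, whose human counterpart is a split pseudogene, was lower in IP: 9.04, 9.49 and 9.92 against 9.37, 9.84 and 10.43. The fractions overlapped, and the difference was -0.42 ± 0.086 (adjusted p = 2.81e-04), at -0.50 and -0.34 in replicates 1 and 2. Col6a5 gave -0.36 ± 0.0986 (adjusted p = 3.04e-03; 0.0509 with the set as a random block), but the mean of its 2 probe sets gave 0.017, so its probe sets did not agree. Col6a6 was called higher at 0.31 ± 0.0848 (adjusted p = 3.71e-03) and lower at -0.22 after centring, and the mean of its 2 probe sets was not called (adjusted p = 0.68).

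Pairs of related genes, either chains of one molecule or alternative members of a family, were also set against each other within each array. This leaves out a constant log2 shift of the array, but not a scaling that changes with intensity. The level of such a difference has no meaning between probe sets, and only its shift between fractions is read. Col6a1 minus Col6a2 was 1.12, 1.47 and 1.90 in IP and -0.37, -0.21 and -0.035 in total testis (lowest, median and highest log2 difference). All 10 IP arrays lay above the highest total testis array, and the shift was 1.68 in replicate 1 and 1.72 in replicate 2. Col6a1 minus Col6a3 shifted by 1.51 and 1.37, likewise in 10 of 10 arrays.

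Col1a2 minus Col1a1 was 0.32, 0.43 and 0.64 in IP and -0.17, -0.11 and -0.072 in total testis. It shifted by 0.62 and 0.57 in the 2 replicates, with 10 of 10 IP arrays above total testis, as the separate values of the 2 genes above already show. Lama4 minus Lama2 moved by 1.95 and 2.06, Lamc1 minus Lamb1 by 0.34 and 0.30, and Col4a1 minus Col4a3 by 0.68 and 0.83, each in 10 of 10 arrays. Col3a1 minus Col1a1 (0.78 and 0.73) and Col6a3 minus Col6a2 (only 0.17 and 0.35) also had 10 of 10. The share of all gene pairs with 10 of 10 was not computed, so that count does not set these pairs apart. Of single genes tested, 32.8% had every IP array above every total testis array. Lama4 was below the low-value filter in every total testis window.

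Col4a1 minus Col4a2, the pair with the shared promoter window, was -0.093, 0.0028 and 0.17 in IP and -0.16, -0.025 and 0.10 in total testis. The fractions lay over each other, with 1 of 10 IP arrays above the highest total testis array and shifts of 0.15 and -0.057. Col4a3 minus Col4a4 overlapped fully, with 0 of 10 IP arrays above. Col4a5 minus Col4a6 had 5 of 10 above, and Nid2 minus Nid1 had 2 of 10. No test was run on these differences, since the pairs were chosen after values had been seen.

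**Figure D3:**
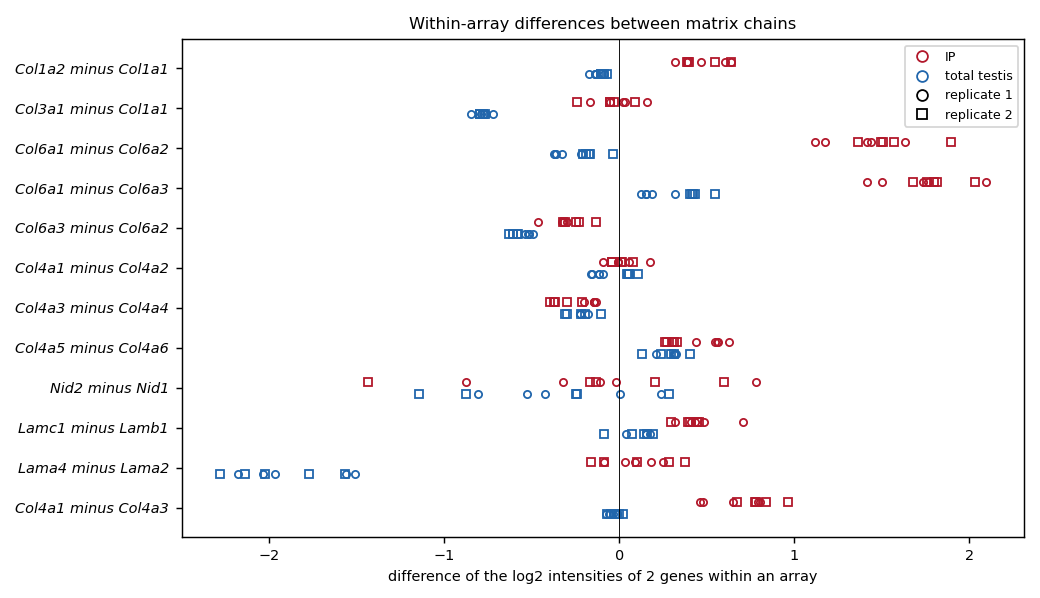
Difference between the log2 intensities of the named pair of genes within each array, for IP (red) and total testis (blue), with circles for replicate 1 and squares for replicate 2. Col6a1 minus Col6a2 is 1.12 to 1.90 in IP and -0.37 to -0.035 in total testis, while Col4a1 minus Col4a2 overlaps between the fractions.

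Fibril-associated collagens sit on the surface of fibrils, and their differences were small. Of 9, 3 were higher, 2 lower and 4 not called, beside 50.1% higher and 26.6% lower among all genes. After centring all 9 were lower, beside 62%. Col12a1, found on collagen I fibrils of dense tissue, lay at 7.83, 8.22 and 8.66 in IP and 8.36, 8.59 and 9.09 in total testis. It had the lowest difference of the 68 genes, -0.46 ± 0.0806 (adjusted p = 6.06e-05; 0.0142 with the set as a random block), although its arrays overlapped. Col9a1, of cartilage, was called lower at -0.15 ± 0.0633 (adjusted p = 0.0363), a call lost with the testis shared by an IP and a total sample as a block (0.0630) and in 11 of 20 fits that left out 1 array, up to 0.0926 without the first IP replicate of XII-II/III. Col14a1 (0.23), Col20a1 (0.17) and Col9a2 (0.17) were called higher and were lower after centring, at -0.30, -0.35 and -0.35, and none was called with the set as a random block (adjusted p = 0.107, 0.316 and 0.188).

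Among the other network and anchoring collagens, 3 of 6 were higher, a share near the 50.1% of all genes. Col26a1, a collagen first found in testis and ovary, differed by 0.80 ± 0.103 (1.74-fold, adjusted p = 1.98e-06). Its IP arrays, at 10.18, 10.57 and 10.96, overlapped total testis at 9.35, 9.74 and 10.26, and it remained higher after centring (0.28). Col28a1 (0.26) and Col10a1 (0.15) were called higher and were lower after centring (-0.27 and -0.37; adjusted p = 0.0753 and 0.143 with the set as a random block). Col10a1 passed the low-value filter through 1 window of IP, VIII-X, and no window of total testis (adjusted p = 0.0248 with no such filter). Col7a1, Col8a1 and Col8a2 were not called. Col23a1 was the 1 of 4 transmembrane collagens that was called (0.45 ± 0.102, adjusted p = 7.81e-04), and it was at -0.076 and not called after centring. Of the multiplexins, whose cleaved ends include endostatin, Col18a1 differed by 0.59 ± 0.129 (adjusted p = 5.24e-04; 0.131 with the set as a random block) and Col15a1 by -0.05 ± 0.117 (adjusted p = 0.698).

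Elastic fibre genes held a single large difference. Fbln5, a fibulin that ties elastin to microfibrils and to integrins, lay at 11.03, 11.37 and 11.72 in IP and 9.24, 9.36 and 9.48 in total testis. Every IP array was above every total testis array, and it differed by 2.00 ± 0.066 (3.99-fold, adjusted p = 4.83e-14), at 1.89 and 2.10 in replicates 1 and 2. Fbln2 was called higher at 0.31 ± 0.089 (adjusted p = 5.09e-03) and lower after centring, at -0.22. Eln, elastin itself, gave 0.094 ± 0.0857 (adjusted p = 0.326), Fbln1 gave -0.022 ± 0.103 (adjusted p = 0.851), and Fbn2, a fibrillin, gave -0.16 ± 0.0902 (adjusted p = 0.119); after centring these were -0.43, -0.55 and -0.68.

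All 4 glycoproteins and small proteoglycans tested were higher in IP, and 3 remained so after centring. Sparc, a collagen-binding glycoprotein, lay at 14.15, 14.20 and 14.32 in IP and 13.00, 13.22 and 13.34 in total testis, and Dcn (decorin) at 12.64, 12.77 and 12.99 against 11.70, 11.84 and 12.05. Both kept the fractions apart in all arrays. They differed by 1.00 ± 0.0582 (2.00-fold, adjusted p = 6.95e-11) and 0.94 ± 0.0679 (1.92-fold, adjusted p = 1.22e-09). Bgn (biglycan) differed by 0.85 ± 0.0989 (adjusted p = 5.74e-07). Fn1 (fibronectin) differed by 0.82 ± 0.167 (adjusted p = 2.89e-04), but was not called after centring (adjusted p = 0.0561) or with the set as a random block (0.0570).

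The fit treats the 10 arrays of a fraction as independent, but they came from 2 sets normalized apart, so its SEs and p-values may be too low. A random block for the set (correlation 0.636) left 27 genes higher and 2 lower, Col12a1 and Col6a4, beside 40.3% and 18.8% of all genes.

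The enzymes that fold, modify and trim collagen were given by a list of their own. Of 24 tested, 17 were higher in IP, 0 lower and 7 not called, with a median of 1.15; after centring 15 were higher and 8 lower. Plod2, a lysyl hydroxylase that prepares collagen cross-links, was at a mean log2 intensity of 12.08 in IP and 8.73 in total testis and differed by 3.35 ± 0.0848 (adjusted p = 2.20e-15). Crtap, part of the prolyl 3-hydroxylase complex, differed by 2.74 ± 0.0755 (adjusted p = 5.78e-15) and Pcolce, an enhancer of procollagen cleavage, by 2.35 ± 0.0631 (adjusted p = 4.37e-15). Serpinh1, the collagen chaperone HSP47, gave 0.096 ± 0.103 (adjusted p = 0.402).

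Of 21 matrix receptor genes, 14 were higher, 3 lower and 4 not called, with a median of 0.84; after centring 11 were higher and 9 lower. Ddr2, a receptor for fibrillar collagens, differed by 2.86 ± 0.0639 (adjusted p = 6.75e-16), Itga9, an integrin alpha subunit, by 2.12 ± 0.108 (adjusted p = 1.26e-11) and Itgb1, the common beta subunit of collagen and laminin integrins, by 2.04 ± 0.0805 (adjusted p = 4.35e-13). The 3 that were lower encode integrin alpha subunits: Itga1 at -0.63 ± 0.0776 (adjusted p = 1.09e-06), Itga11 at -0.43 ± 0.108 (adjusted p = 1.88e-03; 0.0517 with the set as a random block) and Itga8 at -0.33 ± 0.0525 (adjusted p = 2.47e-05). Itga1 and Itga11 products bind collagen.

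Of 21 matrix proteases and inhibitors, 15 were higher, 0 lower and 6 not called, with a median of 0.86; after centring 11 were higher and 9 lower. Timp1, an inhibitor of metalloproteinases, differed by 2.85 ± 0.0892 (adjusted p = 2.47e-14), Ctsk, the collagen-cleaving cathepsin, by 2.19 ± 0.0641 (adjusted p = 1.16e-14) and Mmp19 by 2.13 ± 0.0978 (adjusted p = 3.28e-12). The 3 lists stand beside 50.1% higher and 26.6% lower among all genes tested, and 27.6% and 62% after centring.

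**Figure D4:**
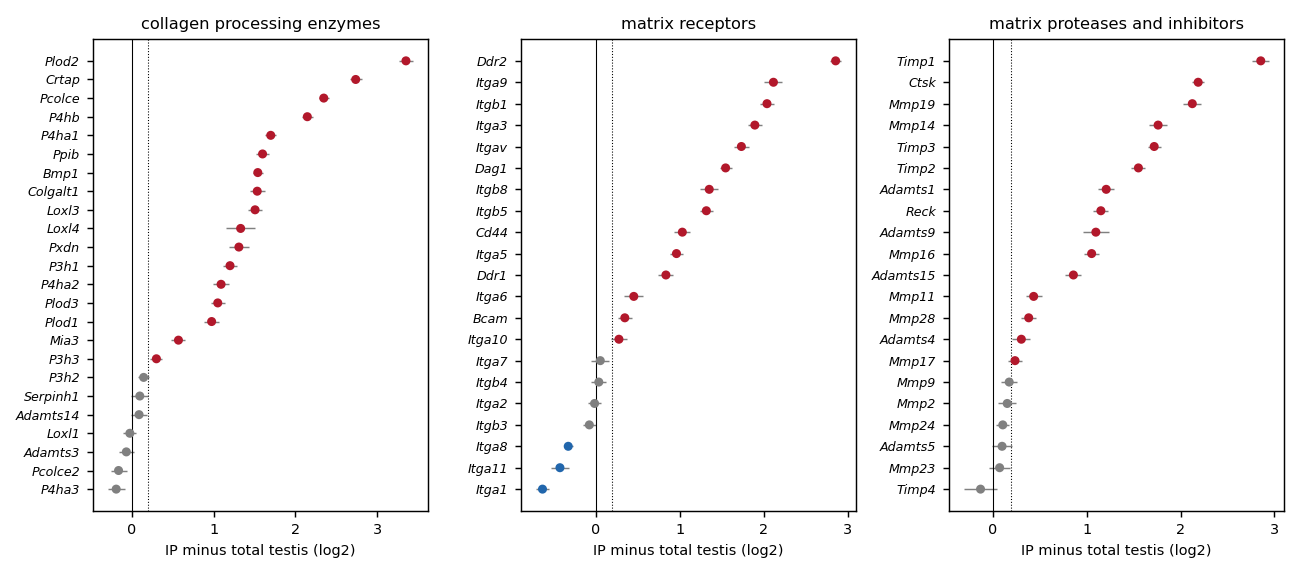
Difference of IP minus total testis (log2, point) with its SE (bar) for collagen processing enzymes, matrix receptors, and matrix proteases and inhibitors, with red for genes called higher, blue for genes called lower, grey for genes not called and a dotted line at the 0.20 median of all genes. Plod2 at 3.35, Ddr2 at 2.86 and Timp1 at 2.85 lead the panels, and Itga1, Itga11 and Itga8 are the blue points.

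The second comparison asked whether matrix genes changed over the windows of the cycle. In total testis 4 of 68 genes passed limma's moderated F test (5.88%), beside 18.4% of all genes tested, and in IP 3 of 68 did (4.41%), beside 8.87%. The laminin chains, collagen IV chains, fibrillar collagens and glycoproteins that led the first comparison were not among them. A fibrillin (Fbn2), a nidogen (Nid2), Col6a4 and Col20a1 changed in total testis. Fbn2, Fbln1 and Nid1 changed in IP.

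Fbn2, a microfibril gene best known from embryonic tissue, passed in both fractions. In total testis its log2 intensity in replicates 1 and 2 was 10.40 and 10.002 in XII-II/III, 9.05 and 9.12 in II/III-VI, 9.59 and 9.74 in VI-VIII, 10.46 and 10.45 in VIII-X, and 10.45 and 10.37 in X-XII. In IP it was 9.77 and 9.79, 9.07 and 9.49, 9.33 and 9.96, 10.25 and 10.14, and 9.92 and 10.33 in the same order. Both fractions were lowest in II/III-VI and highest in VIII-X or X-XII. The means of the highest and lowest windows differed by 1.37 in total testis (2.58-fold, adjusted p = 3.52e-04) and by 0.91 in IP (1.88-fold, adjusted p = 0.0277). In IP the call was lost in 4 of 20 fits that left out 1 array (up to 0.158 without the first IP replicate of II/III-VI).

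Nid2 changed in total testis. Its values were 10.31 and 10.24 in XII-II/III, 9.66 and 9.51 in II/III-VI, 9.52 and 9.47 in VI-VIII, 10.001 and 9.79 in VIII-X, and 10.03 and 10.01 in X-XII. XII-II/III was above all other windows in both replicates, by 0.53 ± 0.125 over their mean, and the range of the window means was 0.78 (1.72-fold, adjusted p = 7.80e-03). In IP it was also highest in XII-II/III (11.17 and 11.26), by 0.30 ± 0.125, and was not called (adjusted p = 0.480; 0.0216 with the set as a block).

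Col6a4 had another time course. In total testis it stood at 9.49 and 9.90 in XII-II/III, 10.19 and 10.22 in II/III-VI, 10.25 and 10.43 in VI-VIII, 9.49 and 9.37 in VIII-X, and 9.55 and 9.78 in X-XII. The 4 arrays of II/III-VI and VI-VIII were above the other 6. Its window means spanned 0.91 (1.87-fold, adjusted p = 8.29e-03). In IP the highest window was again VI-VIII (9.74 and 9.92) and the lowest VIII-X (9.07 and 9.19), with a span of 0.70 (adjusted p = 0.105; 7.67e-03 with the set as a block).

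Col20a1 was lowest in II/III-VI and VI-VIII of total testis (9.41 and 9.22, then 9.25 and 9.38) and highest in X-XII (9.83 and 9.84). The span was 0.52 (adjusted p = 0.0257), and the call was lost in 7 of 20 fits that left out 1 array (up to 0.0953 without the second total testis replicate of II/III-VI).

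Nid1 in IP was 11.28 and 11.06 in XII-II/III, 9.76 and 11.17 in II/III-VI, 10.75 and 11.11 in VI-VIII, 11.72 and 12.55 in VIII-X, and 11.30 and 10.50 in X-XII. Both arrays of VIII-X were the highest, and 1 of the arrays of II/III-VI was the lowest while the other was near the median. VIII-X exceeded the mean of the other 4 windows by 1.27 ± 0.288, with a span of 1.67 (3.18-fold, adjusted p = 0.0495). The call was lost in 15 of 20 fits that left out 1 array (up to 0.441 without the second IP replicate of VIII-X) and with the set as a block (0.0766). In total testis Nid1 was also highest in VIII-X (10.81 and 10.94) and lowest in II/III-VI (9.42 and 9.76), without passing (adjusted p = 0.165).

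Fbln1, a fibulin of basement membranes and elastic fibres, was in IP at 9.43 and 9.48 in XII-II/III, 8.72 and 8.94 in II/III-VI, 8.58 and 9.32 in VI-VIII, 9.51 and 10.22 in VIII-X, and 9.66 and 9.26 in X-XII. Its second VIII-X array stood above the rest. VIII-X exceeded the other windows by 0.69 ± 0.182, at 0.41 in replicate 1 and 0.97 in replicate 2, and the span was 1.04 (2.05-fold, adjusted p = 0.0284; 0.0946 without the first IP replicate of II/III-VI). In total testis the F test gave an adjusted p of 0.464.

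Col18a1 followed a like course in IP and was not called (adjusted p = 0.0734; 0.0387 with the set as a block). It was highest in VIII-X (10.04 and 11.07) and, by window mean, lowest in II/III-VI (9.29 and 9.51). Sertoli marker sums followed these genes in some arrays and not in others. They were highest in the second IP replicate of VIII-X (60605), where Nid1, Fbln1 and Col18a1 were highest, and lowest in the first IP replicate of II/III-VI (35931), where Nid1 was lowest. Within the first IP replicate, however, they were highest in VI-VIII (49270, against 45619 in VIII-X), where Fbln1 (8.58) and Col18a1 (9.17) were lowest. Spermatid marker sums were highest in VIII-X in both IP replicates (76034 and 81836) and lowest in VI-VIII in the first (47696), and 7 of 10 spermatid markers were called for a window effect in IP. The Sertoli marker Gata1 was also higher in VIII-X in IP, by 0.77 ± 0.185 (adjusted p = 6.68e-03), and so was Actg2 of smooth muscle and myoid cells, by 0.56 ± 0.165 (adjusted p = 0.0269). Each was the only marker of its list called for a window effect in IP, 1 of 13 Sertoli and 1 of 10 myoid markers. Myoid marker sums in the second IP replicate were highest in X-XII (13332, against 12112 in VIII-X). In the first they were 11496 in VIII-X and 11494 in II/III-VI. The part of these cell types in the window changes was not tested.

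**Figure D5:**
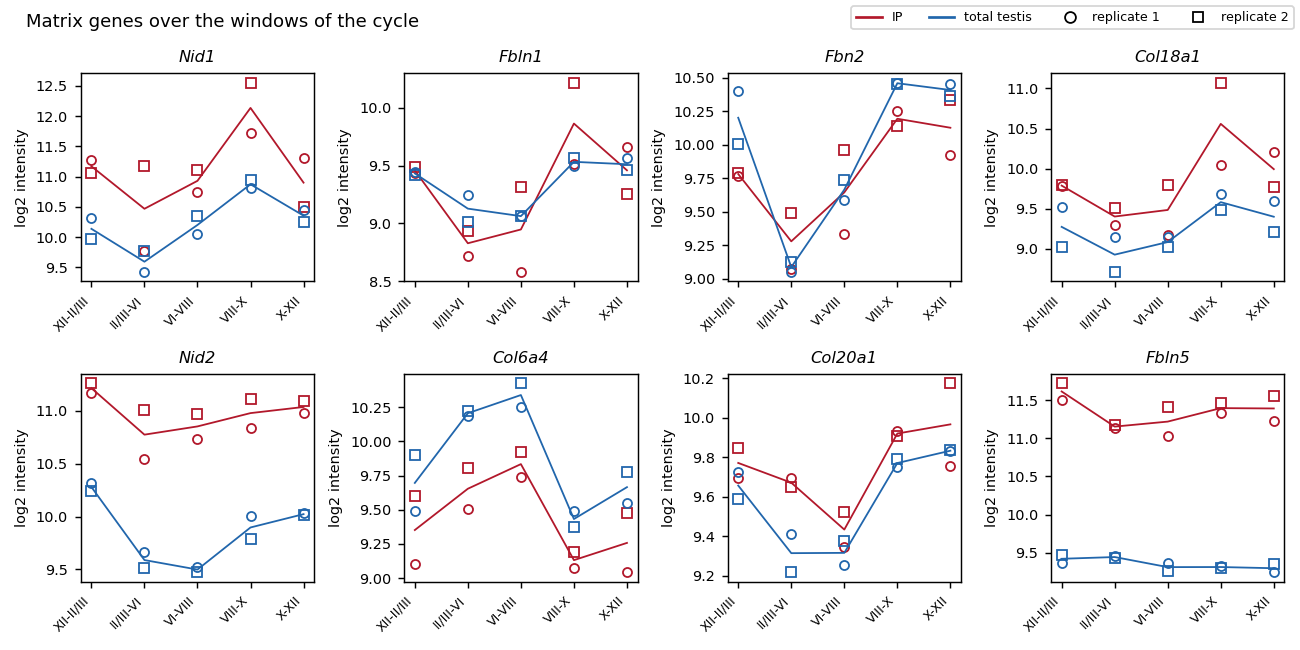
Log2 intensity in each array over the 5 windows for the 6 genes called for a window effect and for Col18a1 and Fbln5, with IP in red, total testis in blue, circles for replicate 1, squares for replicate 2 and lines through the mean of 2 arrays. Fbn2 falls to 9.05 and 9.12 in II/III-VI of total testis, and the highest Nid1 value in IP, 12.55, is the second replicate of VIII-X.

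The window calls in IP depended on the fit: with the IP arrays alone, and with array weights, 0 of 68 genes were called, beside 4.87% and 2.6% of all genes. For total testis the same fits called 9 and 10 genes, beside 30.6% and 37.9%. With the set as a block, 10 genes were called in IP and 11 in total testis, beside 19.2% and 36.7% of all genes. Median centring called 9 in IP and 7 in total testis, beside 13.9% and 29.6%, and quantile normalization 7 and 6, beside 14.8% and 27.9%.

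The third comparison asked whether the course over the windows differed between IP and total testis. In limma's interaction test 0 of 68 genes were called, beside 0.0511% of all genes, and 0 of 68 had an unadjusted p under 0.05, beside 4.43%. None were called with the set as a block (beside 2.31%), after centring (1.33%) or after quantile normalization (0.92%): the count was 0 in each. A gene that passed in 1 fraction only, such as Nid1, Fbln1, Nid2, Col6a4 or Col20a1, was therefore not shown to differ between the fractions.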

How the data were processed

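RNA of 20 samples (IP and total testis, 5 windows, 2 replicates each) was amplified from 100 ng and hybridized to GeneChip ST 1.0 arrays. The authors deposited a linear intensity for each probe set, and RMA is the tool named in the submitters' processing notes. No version of it is named, so that is not given in the sources used here. Precision is limited by the number of arrays. For the first total testis replicate of XII-II/III the labels conflict (X-II/III in the source field, XII-II/III in the title), and the title was followed.

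Between 4.68% and 15.6% of value pairs were equal between arrays of a set, against 6 of 3708780 across sets. In the first total testis set, 30 of 68 genes had at most 3 distinct values in 5 arrays, and in the other sets 14 to 20, so the spread within a set may be too small for these. Agrn, Fn1 and Lamb3 in the second total testis set, Col4a4 and Lama5 in the first, and Col24a1 in the first IP set held 1 value in all 5 arrays. The sets listed 28856, 26006, 23528 and 26013 probe sets, so their low-value floors appear to differ.

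Only the 21789 of 28856 probe sets with 1 symbol were used (1621 had several, 5446 none), and the probe set with the highest mean was kept for each gene. Values were taken as log2. Genes listed in all 20 arrays with a group mean above 8.20 (the 25th percentile) were tested. The 68 genes listed in all arrays all passed: 62 in both fractions, 5 only in IP (Lama4, Col5a2, Col10a1, Col19a1, Fbln7) and 1 only in total testis (Col8a1).

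Tests used limma 3.58.1 in R 4.3.3 with a mean for each of 10 groups (10 residual degrees of freedom), eBayes and two-sided Benjamini-Hochberg adjusted p over 15651 genes (threshold 0.05). The difference of IP and total testis was the mean of the 5 IP groups less that of the 5 total testis groups. Windows were tested with a moderated F test, and a peak is given as that window minus the mean of the other 4. The script was tested on simulated data of independent arrays, which held no set effect. That test does not cover sets normalized apart. The replicate number pairs the IP and total testis of a window, since both come from 1 homogenate. The deviations of the 5 pairs correlated at 0.158 to 0.359, and at 0.300 to 0.519 after set means were removed. Replicate number was not taken to pair the windows. Deviations of different windows correlated at -0.00631 to 0.551 in IP and -0.0616 to 0.666 in total testis. These arrays share their sets, so the values do not show whether windows are paired.

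Alternatives were other scalings, filters, probe set rules and blocks, array weights, a fit of each fraction alone and leaving out each array. The genes and lists were chosen with earlier results of these data known. Array values are given for genes called over the windows and for the largest and smallest differences, and further genes by role.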

Additional observations from a re-analysis of the deposited data

How the results depend on the processing

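All 44 called differences kept their sign in every fit that left out 1 array, and 4 lost the call in at least 1 such fit: Col9a1 (adjusted p up to 0.0926), Col9a2 (0.0671), Col10a1 (0.057) and Col20a1 (0.0529). Without 1 array the genes higher in IP numbered 37 to 48, those lower 4 to 6, those with a window effect 0 to 4 in IP and 3 to 7 in total testis, and those with an interaction 0 to 0. The processing list had 17 to 18 higher and 0 to 1 lower, receptors 14 to 14 and 3 to 3, and proteases 15 to 17 and 0 to 0. The 0 in IP came without the second VIII-X replicate. Quantile normalization gave 34 matrix genes lower, 6 processing, 7 receptor and 5 protease genes lower, and 7 window effects in IP. Median centring gave 22 higher and 41 lower, 8, 9 and 9 lower in the 3 lists, and 9 and 7 window effects in IP and total testis. A filter at the 50th percentile left 2 matrix genes and 1 receptor gene lower. Array weights gave 0 and 10 window effects, each fraction alone 0 and 9, and the set as a fixed replicate block 10 and 11. The set as a random block gave 2 lower. With the testis as a replicate block 38 were higher and 4 lower, 1 processing gene was lower, and Col9a1 and Col9a2 (adjusted p = 0.0630 and 0.0551) lost their calls. Signs turned under quantile normalization for Lama2 (-0.23), Lama5 (-0.19), Col4a3 (-0.16), Col4a4 (-0.20), Col1a1 (-0.38), Col5a1 (-0.27), Col5a3 (-0.10), Col6a3 (-0.34), Col23a1 (-0.017), Eln (-0.33), Col6a6 (-0.14), Col28a1 (-0.042), Col13a1 (-0.17), Col14a1 (-0.23), Col7a1 (-0.26), Col11a2 (-0.21), Col20a1 (-0.33), Col9a2 (-0.32), Col16a1 (-0.31), Col10a1 (-0.035), Col24a1 (-0.16), Col8a2 (-0.087), Col27a1 (-0.38), Col22a1 (-0.38), Col17a1 (-0.28), Col2a1 (-0.42) and Col9a3 (-0.42). Under centring they turned for Lama2 (-0.26), Lama5 (-0.38), Col4a3 (-0.31), Col4a4 (-0.29), Col1a1 (-0.39), Col5a1 (-0.37), Col5a2 (-0.17), Col5a3 (-0.26), Col6a3 (-0.51), Col23a1 (-0.076), Eln (-0.43), Fbln2 (-0.22), Col6a6 (-0.22), Col28a1 (-0.27), Col13a1 (-0.29), Col14a1 (-0.30), Col7a1 (-0.30), Col19a1 (-0.30), Fbln7 (-0.31), Col11a2 (-0.31), Col20a1 (-0.35), Col9a2 (-0.35), Col16a1 (-0.35), Col10a1 (-0.37), Col24a1 (-0.38), Col8a2 (-0.39), Col27a1 (-0.40), Col22a1 (-0.40), Col17a1 (-0.41), Col2a1 (-0.45) and Col9a3 (-0.46). The mean of both probe sets turned Col6a5 (0.017). Leaving out 1 array turned values near 0: Fbln1 (-0.096 to 0.052), Col15a1 (-0.11 to 0.0066), Col6a3 (-0.030 to 0.058), Col25a1 (-0.060 to 0.035), Col9a3 (-0.00776 to 0.14) and the VIII-X difference of Col9a3 in IP (-0.052 to 0.68, lowest without the second VIII-X replicate). The median of all genes tested also turned, from 0.20 to -0.11 under quantile normalization and -0.32 under centring. The cause of these changes was not tested.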

Other observations

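Genes that act on the matrix were also tested over the windows. In IP, limma's moderated F test (Benjamini-Hochberg adjusted p) called 2 of 21 receptor genes and 2 of 21 proteases and inhibitors, beside 8.87% of all genes, and 0 of 24 collagen processing enzymes. In total testis it called 2 of 21, 4 of 21 and 3 of 24 in the same order, beside 18.4% of all genes. Itga1, an integrin subunit that binds collagen, was higher in II/III-VI than in the other windows by 1.16 ± 0.137 in IP (adjusted p = 7.00e-06) and by 1.09 ± 0.137 in total testis (adjusted p = 7.99e-06). Ddr1, a collagen receptor, was higher in VIII-X in IP, by 0.62 ± 0.158 (adjusted p = 8.70e-03), while in total testis its highest window was X-XII, by 0.39 ± 0.158 (adjusted p = 0.0125); its interaction test was not called (limma, unadjusted p = 0.655). Timp4, an inhibitor of metalloproteinases, was higher in VIII-X by 1.64 ± 0.309 in IP (adjusted p = 6.46e-03) and 1.95 ± 0.309 in total testis (adjusted p = 4.01e-04). Mmp11, the metalloproteinase stromelysin-3, was higher in VIII-X by 0.99 ± 0.148 in IP (adjusted p = 3.01e-04) and 0.54 ± 0.148 in total testis (adjusted p = 9.91e-04). Adamts9, a protease of proteoglycans, was higher in VIII-X of total testis by 1.14 ± 0.242 (adjusted p = 5.20e-03). P4ha2, P3h2 and Mia3, which modify or export procollagen, were each highest in II/III-VI of total testis, by 0.66, 0.48 and 0.63 (adjusted p = 0.0463, 0.0125 and 0.0299).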
